A study of Mus musculus with 6 samples.

Results

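The classical cadherins and the catenins that bind them were examined in mouse induced pluripotent stem cells (iPSCs) with and without serum response factor (SRF). The 10 genes were taken by symbol from a count table of 24421 gene entries. They are the cadherins Cdh1, Cdh2, Cdh3, Cdh5 and Cdh11, the catenins Ctnna1, Ctnnb1, Ctnnd1 and Jup, and the epithelial cell adhesion molecule Epcam. All 10 had a row, and all 10 were among the 14778 genes that passed the filter on low counts.

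iPSCs are cells reprogrammed to a state like that of embryonic stem cells. Bulk RNA sequencing libraries were made from 3 samples of SRFΔ/Δ cells, in which the gene was deleted (SRF KO), and 3 samples of SRFf/f cells, which carry the undeleted conditional allele (WT). Both groups were grown in medium that contains serum. How the allele was deleted, the number of clones and the use of feeder cells are not given in the sources used here, so that p-values measure the spread between these samples, which may be technical.

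Classical cadherins are single-pass membrane proteins whose outer domains bind cadherins of the neighbouring cell in the presence of calcium. Their tails hold catenin delta-1 near the membrane and beta-catenin or plakoglobin further in, and alpha-catenin links these to actin filaments. E-cadherin is the main cadherin of mouse pluripotent cells and of epithelia, and a change from E-cadherin to N-cadherin is a textbook feature of cells that leave an epithelium. SRF is a transcription factor known for actin and other cytoskeletal genes.

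Levels are CPM, the counts of a gene relative to the library's total, with library sizes scaled by the trimmed mean of M values (TMM). A log2 fold change compares SRF KO with WT, is positive where SRF KO is higher and has a standard error (SE), and was tested with edgeR's quasi-likelihood test across all features of the table. A gene was called at a Benjamini-Hochberg adjusted p under 0.05 over all features tested. The libraries held from 26321602 to 36680156 counts. The first principal component of log2 CPM separated the groups, and on the second WT replicate 2 lay at 17.7 against -6.72 and -12.1 for the other WT libraries. On the same component SRF KO replicate 2 was shifted the same way, at 6.76 against -2.83 and -2.85 for the other SRF KO libraries. Srf itself had 4.20, 3.17 and 4.53 CPM in the SRF KO libraries and 36.6, 29.7 and 37.2 CPM in the WT libraries, so that the targeted gene and the labels pointed the same way in all 6.

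Of the 10 genes, 4 were called higher in SRF KO (Cdh1, Cdh2, Cdh5 and Cdh11) and 4 lower (Cdh3, Ctnna1, Jup and Epcam). Over all genes tested, 21.2% were called higher and 21.3% lower, 42.4% in either direction. When the log2 fold change also had to be 1 or more in either direction, 2 were higher (Cdh5 and Cdh11) and 0 lower, against 5.53% and 1.76% of all genes. The SRF KO and WT values did not overlap for 9 of the 10, with 4 above and 5 below WT, against 52.7% of all genes (26.2% above and 26.5% below). The shares over all genes were not matched for level. In mean level, Ctnnb1, Cdh1, Ctnna1, Ctnnd1, Epcam and Jup lay above 98.8%, 98.6%, 98.6%, 96.2%, 92.8% and 85.5% of genes tested. Cdh3, Cdh11, Cdh2 and Cdh5 lay above 64.2%, 62.1%, 43.4% and 19.5%. The median log2 fold change of the 10 was -0.05, and that of all genes tested was -0.01. The large differences were those of Cdh5, Cdh11 and Cdh2, cadherins with lower levels than E-cadherin and the catenins. Cdh3, at a level like that of Cdh11, had a log2 fold change of -0.18, and Epcam had one of -0.31. The log2 fold changes of the abundant E-cadherin and of the catenins lay between -0.24 and 0.12.

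**Figure D1:**
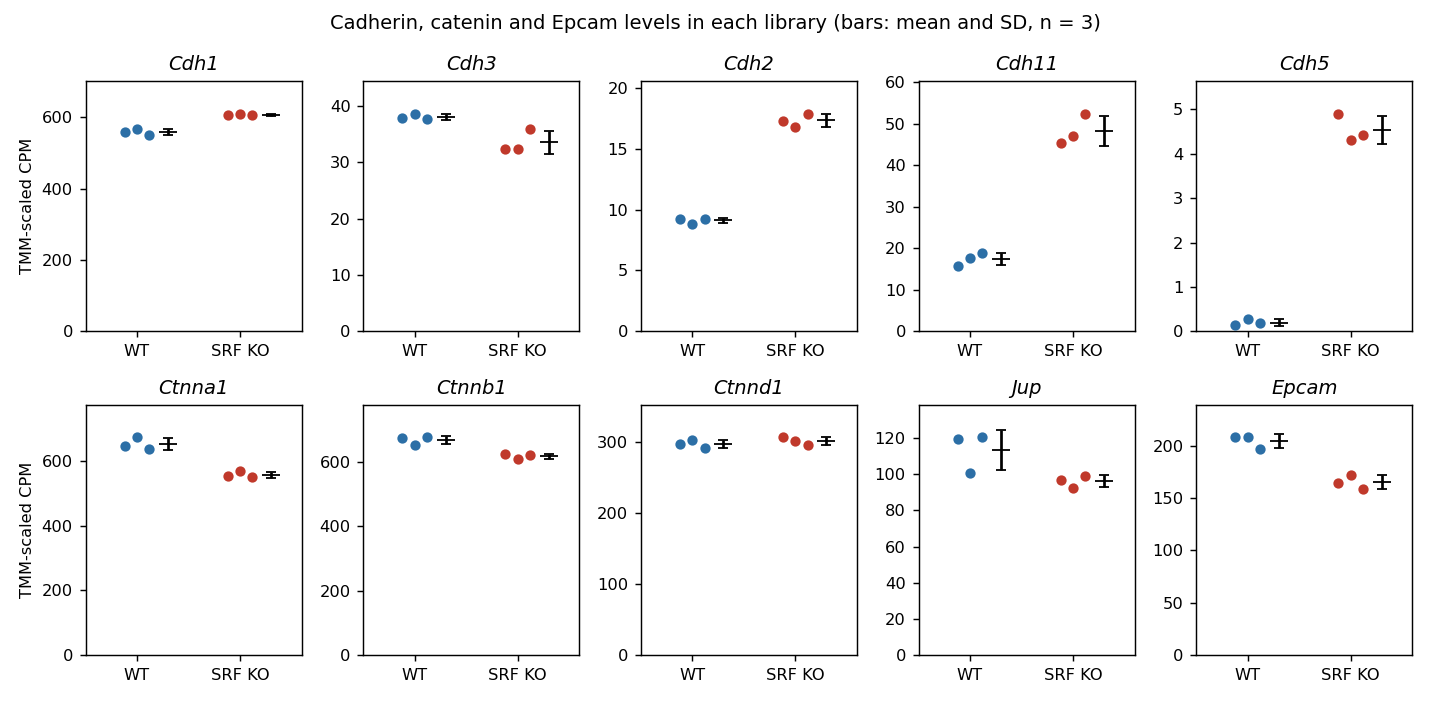
TMM-scaled CPM of each gene in the 3 WT libraries (blue) and 3 SRF KO libraries (red), with each panel's axis starting at 0 and black bars for the mean and SD. Cdh2, Cdh11 and Cdh5 lie well above WT in every SRF KO library, whereas Cdh1 lies between 549.7 and 567 CPM in WT and between 606 and 610.5 CPM in SRF KO.

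Cdh1 encodes E-cadherin. It had 606, 610.5 and 607 CPM in SRF KO replicates 1 to 3 and 558, 567 and 549.7 CPM in WT replicates 1 to 3. All SRF KO libraries were thus above all WT libraries, and the mean of 608 ± 2.41 CPM was 1.09 times the WT mean of 558 ± 8.71 CPM (SD, n = 3). This was a log2 fold change of 0.12 (SE 0.04), at an edgeR adjusted p of 0.0455, close to the threshold. The call was lost when gene entries were fitted without transposable elements (adjusted p 0.0521), with no filter on low counts (0.0655), and when any library other than WT replicate 2 was left out (between 0.102 and 0.150). The value itself stayed between 0.11 and 0.16 over all alternatives run.

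Cdh3 encodes P-cadherin and lies near Cdh1 on chromosome 8. Annotation of the build named for these data, mm10 (GENCODE M21 on GRCm38), places Cdh3 at chr8:106510891-106557297 and Cdh1 at chr8:106603351-106670246, both on the plus strand and 46.1 kb apart, with 1 annotated protein-coding gene between them. Cdh3 had 32.5, 32.4 and 36.0 CPM in SRF KO against 37.9, 38.7 and 37.7 CPM in WT. Its SRF KO values were all lower, with replicate 3 nearest to WT, and the log2 fold change was -0.18 (SE 0.06, edgeR adjusted p 0.0370). This call was lost in DESeq2 (adjusted p 0.0831), with RLE scaling (0.0502), with total counts alone (0.0967) and with no filter on low counts (0.0506). It was also lost without SRF KO replicate 1 (0.158), SRF KO replicate 2 (0.141), WT replicate 1 (0.0952) or WT replicate 3 (0.0594). The neighbouring E- and P-cadherin genes therefore had small differences of opposite sign, each on the edge of the threshold.

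Cdh2 encodes N-cadherin, which is known from neural and mesodermal cells and from mesenchyme. The gene lies at chr18:16588877-16809246 on the minus strand. Cdh2 had 17.3, 16.9 and 17.9 CPM in SRF KO against 9.22, 8.86 and 9.27 CPM in WT. The groups lay far apart relative to the spread within each. The mean rose from 9.12 ± 0.224 to 17.4 ± 0.532 CPM (SD, n = 3), 1.90-fold, a log2 fold change of 0.93 (SE 0.07) with an edgeR adjusted p of 2.1e-06. It was called without each library in turn, with values between 0.90 and 0.96.

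Cdh11 encodes a type II cadherin known from mesenchymal cells, osteoblasts and fibroblasts. Cdh11 had 45.4, 47.1 and 52.4 CPM in SRF KO against 15.8, 17.6 and 18.75 CPM in WT. Its mean rose 2.78-fold, from 17.4 ± 1.50 to 48.3 ± 3.65 CPM (SD, n = 3). Its log2 fold change, 1.48 with an SE of 0.08 (edgeR adjusted p 9.4e-08), was larger than those of 97.5% of all genes tested in absolute size.

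Cdh5 encodes VE-cadherin, the cadherin of endothelial cells. Its counts were 132, 114 and 128 in SRF KO against 5, 7 and 5 in WT. In CPM these were 4.91, 4.31 and 4.42 (SRF KO) and 0.138, 0.272 and 0.174 (WT), the last group close to the level that 3 counts give, between 0.0828 and 0.117 CPM. Cdh5 would not have passed the filter on low counts on its WT counts alone. The mean in SRF KO was 23.3 times that in WT. The log2 fold change was 4.56 (SE 0.22, edgeR adjusted p 3.4e-08) and lay between 4.34 and 4.85 when single libraries were left out. It ranked 24 among the rises of all genes tested. Cdh5 lies at chr8:104101625-104144511 and Cdh11 at chr8:102632095-102785642 on the opposite strand, with 1316 kb and 0 annotated protein-coding genes between them.

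**Figure D2:**
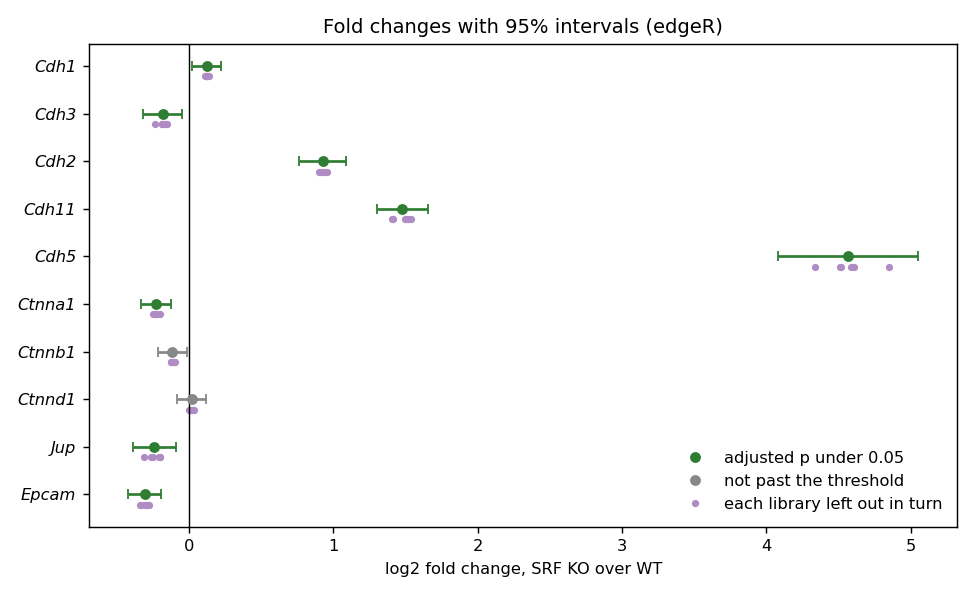
Log2 fold change of each gene, SRF KO over WT, with the 95% interval from edgeR (large points, green where the adjusted p was under 0.05 and grey otherwise) and the values with each library left out in turn (small purple points). Cdh5, Cdh11 and Cdh2 stand apart at 4.56, 1.48 and 0.93, and the other 7 genes lie between -0.31 and 0.12.

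The catenins were lower or did not pass the test. Ctnna1 encodes alpha-E-catenin, the link from the cadherin complex to actin, at chr18:35118859-35254779 on the plus strand. It had 554, 568 and 549.6 CPM in SRF KO against 646, 674 and 638 CPM in WT, with no overlap. The log2 fold change was -0.23 (SE 0.05), 85.4% of the WT level, with an edgeR adjusted p of 0.00231, and it was called without each library in turn.

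Ctnnb1 encodes beta-catenin, which binds the cadherin tail and also carries Wnt signals to the nucleus, at chr9:120929216-120960507 on the plus strand. Its levels were 624.5, 609 and 621 CPM in SRF KO against 676, 653 and 677 CPM in WT. Every SRF KO value was below every WT value, but the log2 fold change of -0.11 (SE 0.05, 95% interval -0.21 to -0.01) missed the threshold, with an adjusted p from edgeR of 0.0668. It passed without WT replicate 2 (adjusted p 0.0152). Annotated exons of Ulk4, on the opposite strand, share 14.6% of the exon bases of Ctnnb1, and whether counting used strand is not given in the sources used here. Ulk4 had 2.41 ± 0.207 CPM in SRF KO against 2.52 ± 0.390 CPM in WT (SD, n = 3), far below Ctnnb1.

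Ctnnd1 encodes catenin delta-1, which holds cadherins at the membrane, at chr2:84600071-84650765 on the minus strand. It had 306, 301 and 296 CPM in SRF KO against 297.5, 302 and 292 CPM in WT, and the groups overlapped. The log2 fold change was 0.02 (SE 0.05), with a 95% interval from -0.08 to 0.12 and an edgeR adjusted p of 0.770. Among the catenins it had the smallest difference. The gene model Gm28635, on the same strand, covers 61.2% of its exon bases. Gm28635 had no entry of its own in the count table, so that its level cannot be set beside that of Ctnnd1 and reads from the shared bases cannot be told apart here.

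Jup encodes plakoglobin, which is related to beta-catenin and serves both adherens junctions and desmosomes, at chr11:100368958-100397763 on the minus strand. It had 97.0, 92.65 and 98.9 CPM in SRF KO against 119.5, 101 and 120.5 CPM in WT. WT replicate 2 lay just above the highest SRF KO library, apart from the other WT libraries. The log2 fold change was -0.24 (SE 0.07, edgeR adjusted p 0.0150). It was -0.31 without WT replicate 2, and the call was lost without SRF KO replicate 2 (-0.21, adjusted p 0.0607) or WT replicate 1 (-0.20, adjusted p 0.0665).

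Epcam encodes a membrane glycoprotein of epithelial and pluripotent cells that takes part in adhesion independently of the cadherins, at chr17:87635979-87651129 on the plus strand. It had 164, 172 and 158.5 CPM in SRF KO against 208, 208 and 196 CPM in WT, with no overlap. The mean fell from 204 ± 6.60 to 165 ± 6.79 CPM (SD, n = 3), to 80.85% of WT. This was the largest fall among the 10 genes, a log2 fold change of -0.31 (SE 0.05) with an edgeR adjusted p of 0.000554, and it was called without each library in turn.

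Promoters in the RefSeq table (GRCm38.p6) were matched by symbol for Epcam, Jup, Ctnnb1 and Ctnnd1. The 250 bases before the start site are shown for Epcam and Jup, which both fell. Both strands were searched from 250 bases before to 50 bases after the start for the E-box CAGGTG, the site known for the Snail and Zeb repressors of E-cadherin, and for the CArG box, the site known for SRF. Capitals mark the E-boxes. The first sequence is chr17:87635729-87635978 on the plus strand and the second is chr11:100397791-100398040 on the minus strand.
Epcam: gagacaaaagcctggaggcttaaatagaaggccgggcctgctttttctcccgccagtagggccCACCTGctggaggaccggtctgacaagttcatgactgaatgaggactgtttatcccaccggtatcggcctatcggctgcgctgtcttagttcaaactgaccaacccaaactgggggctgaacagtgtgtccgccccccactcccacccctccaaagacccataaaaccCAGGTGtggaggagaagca
Jup: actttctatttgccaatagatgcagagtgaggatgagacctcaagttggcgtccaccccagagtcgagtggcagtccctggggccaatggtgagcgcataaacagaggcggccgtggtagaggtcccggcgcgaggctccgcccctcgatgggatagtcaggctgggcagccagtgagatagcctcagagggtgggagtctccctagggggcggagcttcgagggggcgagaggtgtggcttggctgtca
Epcam held 2 E-boxes, whose first bases lie 187 and 19 bases before the start. The windows of Jup, Ctnnb1 and Ctnnd1 held no E-box, and none of the 4 genes held a CArG box in these windows. Of the 32851 promoters in the table, 20.2% held an E-box and 1.63% a CArG box. A match is a description of the sequence and not of binding.

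Levels of different genes were compared per kb of annotated exon, which depends on the gene models. In WT the order from the highest was Ctnnb1 at 129 ± 2.57, Cdh1 at 122 ± 1.90, Ctnna1 at 102 ± 2.88 and Epcam at 92.9 ± 3.01 CPM per kb (SD, n = 3). Below these came Ctnnd1 at 40.6, Jup at 17.6, Cdh3 at 8.69, Cdh11 at 1.95, Cdh2 at 1.13 and Cdh5 at 0.0464 CPM per kb. In SRF KO the same order held except at the top, where Cdh1 at 133 ± 0.526 CPM per kb stood above Ctnnb1 at 119 ± 1.61 CPM per kb (SD, n = 3). Neighbours in either order did not overlap over the 3 libraries of a group. The change at the top rests on the division by length. In CPM the mean of Ctnnb1 was above that of Cdh1 in both groups, at 669 against 558 in WT and 618 against 608 in SRF KO. The unchanged order below the top rests on that division as well, since other pairs changed places in CPM. Cdh1 stood below Ctnna1 in WT (558 against 653) and above it in SRF KO (608 against 557). Cdh11 stood below Cdh3 in WT (17.4 against 38.1) and above it in SRF KO (48.3 against 33.6).

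**Figure D3:**
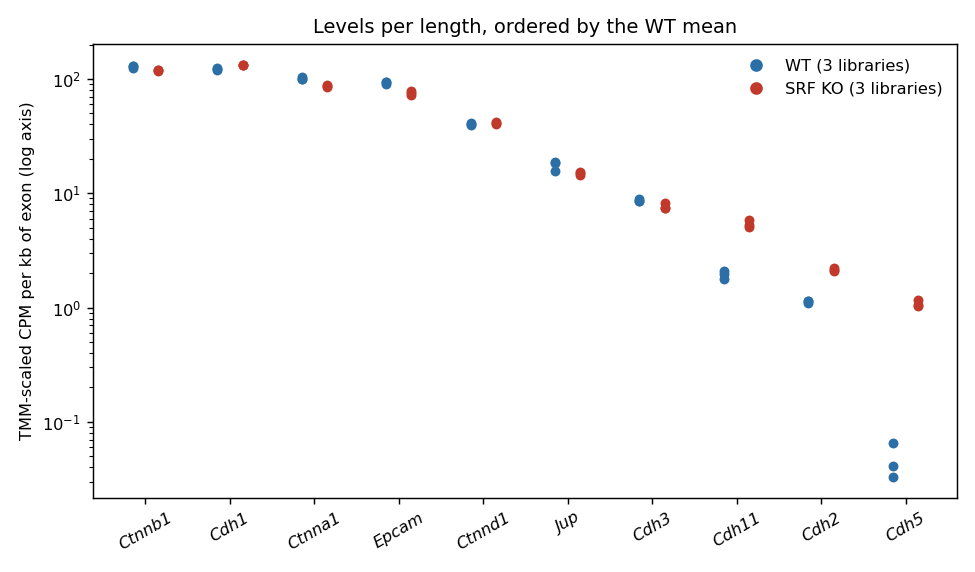
TMM-scaled CPM per kb of annotated exon on a log axis, with genes ordered by the WT mean and 1 point for each of 3 WT (blue) and 3 SRF KO (red) libraries. Per kb, though not in CPM, Cdh1 and Ctnnb1 change places at the top between the groups. Cdh5 is lowest in both, at 0.0464 CPM per kb in WT and 1.08 CPM per kb in SRF KO.

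E-cadherin made up most of the cadherin transcripts in both groups. Per length, Cdh1 was 91.2% ± 0.168 of the summed level of the 5 cadherins in WT and 89.1% ± 0.553 in SRF KO (SD, n = 3). The share of Cdh11 went from 1.46% to 3.63%, that of Cdh2 from 0.845% to 1.44%, that of Cdh5 from 0.0345% to 0.725%, and that of Cdh3 from 6.49% to 5.14%. The groups did not overlap for any of these 5 shares. The summed cadherin level was 711.5 ± 5.69 CPM in SRF KO against 623 ± 8.64 CPM in WT, and that of the 4 catenins was 1573 ± 8.46 and 1732 ± 6.24 CPM (SD, n = 3). In CPM, Cdh1 gave 55.9% of the difference in the cadherin sum and Cdh11 34.9%, while per kb they gave 70.6% and 22.6%. Ctnna1 gave 59.9% of the difference in the catenin sum in CPM and 55.6% per kb.

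Ratios within a library do not depend on library scaling, and were given without a test. Cdh2 counts were 2.86%, 2.76% and 2.95% of Cdh1 counts in SRF KO and 1.65%, 1.56% and 1.69% in WT, 1.75 times as high on average with no overlap. N-cadherin remained rare beside E-cadherin in both groups. The ratio of summed catenin to summed cadherin counts was 2.24, 2.21 and 2.18 in SRF KO and 2.80, 2.735 and 2.81 in WT. Jup counts were 15.5%, 15.2% and 15.9% of Ctnnb1 counts in SRF KO and 17.7%, 15.4% and 17.8% in WT, where WT replicate 2 lay within the SRF KO range.

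**Figure D4:**
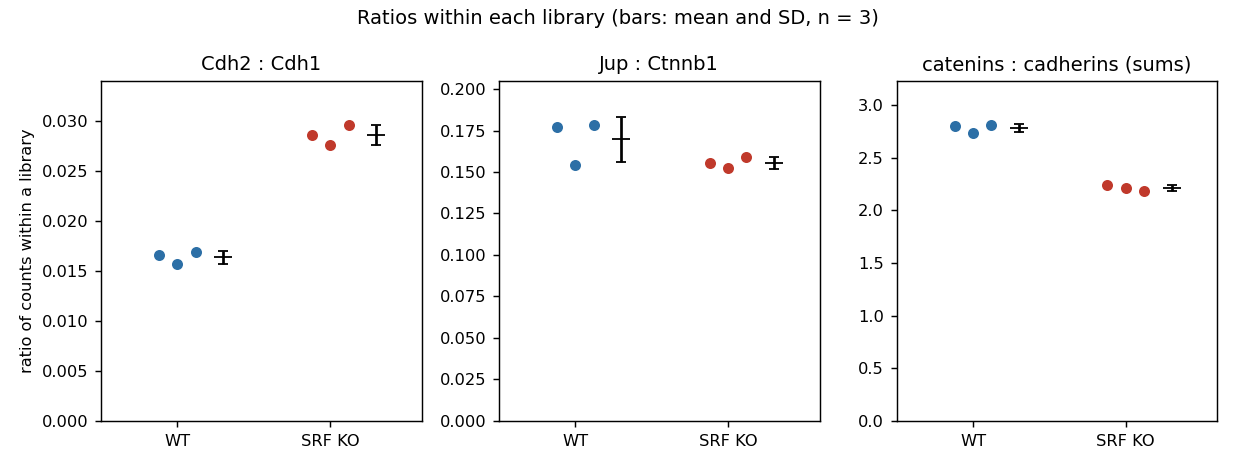
Ratio of Cdh2 to Cdh1 counts, of Jup to Ctnnb1 counts and of summed catenin to summed cadherin counts within each of 3 WT (blue) and 3 SRF KO (red) libraries, with axes from 0 and black bars for the mean and SD. The first ratio is higher and the third lower in all SRF KO libraries, and the middle one overlaps through 1 WT library.

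The study's title concerns expression noise, and the spread between replicate libraries was described for these genes. The coefficient of variation of CPM was smaller in SRF KO for 7 of the 10, as it was for 66.5% of all genes tested. It was 0.396% in SRF KO and 1.56% in WT for Cdh1, and 3.32% and 9.87% for Jup. For Cdh3 it was larger in SRF KO, at 6.12% against 1.34% (Cdh2 and Epcam were the others). The median over the 10 genes was 3.19% in SRF KO and 2.64% in WT, while that over all genes was 5.37% and 7.92%. The count of 7 rested on WT replicate 2, which stood apart from the other WT libraries. Without it, 3 of the 10 genes and 38.0% of all genes had the smaller coefficient of variation in SRF KO, and the median over all genes in WT, then from 2 libraries, was 3.86%. Without any other single library the count was between 6 and 9. These values describe libraries and not cells.

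Other genes of cell adhesion were examined in 8 lists, whose counts stand beside 21.2% of all genes called higher and 21.3% called lower. Of the 14 other classical and type II cadherins, 7 passed the filter on low counts, 3 were called higher and 0 lower, with a median log2 fold change of 0.59. Cdh6, an endoderm and kidney cadherin, rose from 0.351 ± 0.0369 to 1.97 ± 0.147 CPM (SD, n = 3). Cdh4 (R-cadherin) and Cdh9 rose as well, with log2 fold changes of 0.93 and 1.53 (edgeR adjusted p 5.8e-05 and 0.00150). Some of the genes that passed the filter did so only through the group where they were high. Cdh6 (13, 8 and 11 counts in WT) and Cdh9 (8, 7 and 8) would not have passed on their WT counts alone. Cdh22, with 17, 6 and 8 counts in WT against 5, 4 and 2 in SRF KO, was not tested. The calls and the median of this list therefore depend on the filter.

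Nectins and the proteins that bind catenins at adherens junctions mostly fell or did not pass the test, with 2 higher and 9 lower among 18 tested and a median of -0.14. Lima1, which tethers alpha-catenin to actin, had a log2 fold change of -0.66, and the alpha-catenin relative Ctnnal1 had one of -0.63 (edgeR adjusted p 9.6e-07 and 2.6e-06). Mllt4 (afadin), which joins nectins to actin, fell by 0.29 on the log2 scale. Pvrl1 (nectin-1) was higher, from 29.9 ± 2.96 to 48.3 ± 0.725 CPM (SD, n = 3), and Camsap3 was the other gene called higher. Vcl (vinculin), chosen after its value was seen and known as a target of SRF, had 125 ± 3.90 CPM in SRF KO against 149 ± 4.37 CPM in WT (SD, n = 3), a log2 fold change of -0.25.

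Desmosomes were represented by 6 tested genes of 14, of which 2 were higher and 1 lower. Perp, a membrane protein of desmosomes, rose from 23.9 ± 1.07 to 45.0 ± 1.83 CPM, while the plaque protein Pkp2 fell from 66.2 ± 1.63 to 48.75 ± 1.01 CPM (SD, n = 3). Dsc2 had a log2 fold change of 0.46, and its call was lost in DESeq2 (adjusted p 0.0566) and without SRF KO replicate 1, SRF KO replicate 2, WT replicate 1 or WT replicate 3 (between 0.0522 and 0.0786).

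Of 12 tested transcription factors known to repress E-cadherin, 8 were called higher and 0 lower, against 21.2% and 21.3% of all genes. Their median log2 fold change was 0.87. The 4 that did not pass were Tcf3, Tcf4, Klf8 and Snai3, of which the first 3 had the highest CPM of the 12. Zeb2 rose from 10.1 ± 0.312 to 19.85 ± 1.16 CPM, Zeb1 from 16.5 ± 0.459 to 24.65 ± 1.58 CPM and Snai2 from 1.54 ± 0.230 to 3.80 ± 0.438 CPM (SD, n = 3). Twist2, which is also on the fibroblast marker list below (16 of 16 called higher, median 1.16), had a log2 fold change of 1.46. Gsc, among the 8 called higher, had 11, 2 and 9 counts in WT and would not have passed the filter on low counts on these alone. Which cells carried the rises of the 8 factors was not tested. Tcf3 had 137 ± 3.20 CPM in SRF KO against 152 ± 16.55 CPM in WT (SD, n = 3), with a log2 fold change of -0.15 and an edgeR adjusted p of 0.115 (chosen after its value was seen). In the same libraries Cdh1 was 1.09 times the WT level.

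Regulators of epithelial transcription and splicing were called lower in 4 cases and higher in 1 among 9 tested. Elf3, an epithelial ETS factor, fell from 64.0 ± 2.93 to 26.5 ± 0.494 CPM, and Esrp1, which directs epithelial splice forms, from 73.8 ± 3.50 to 36.8 ± 1.34 CPM (SD, n = 3). Grhl1 had a log2 fold change of -0.84 and Klf5 one of 0.33. Among 12 tested partners and proteases of Epcam, 5 were higher and 1 lower, against 21.2% and 21.3% of all genes (42.4% in either direction). The claudin Cldn7, which binds Epcam, fell with it, from 20.5 ± 2.88 to 13.8 ± 0.682 CPM (SD, n = 3). Adam10, a protease that cleaves E-cadherin, and Ncstn, a subunit of gamma-secretase, had log2 fold changes of 0.33 and 0.34, and Fhl2, which binds the Epcam tail, had one of 1.06.

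Genes of cadherin trafficking and turnover had 3 higher and 6 lower calls among 17 tested, against the same 42.4% of all genes called in either direction. Furin, which removes the cadherin propeptide, rose from 30.9 ± 4.64 to 49.5 ± 5.06 CPM, and the epithelial sorting adaptor subunit Ap1m2 fell from 39.5 ± 3.25 to 27.0 ± 0.683 CPM (SD, n = 3). The receptor phosphatases Ptprm and Ptprf had log2 fold changes of 1.09 and -0.44. Of 10 tested genes of the complex that destroys beta-catenin, 3 were lower and 1 higher, a share near that of all genes. Csnk1a1, Apc and Btrc had log2 fold changes of -0.29, -0.31 and -0.26. Axin2, also a transcriptional target of beta-catenin, had 20.4 ± 1.44 CPM in SRF KO against 17.0 ± 1.34 CPM in WT (SD, n = 3), and its call was lost without SRF KO replicate 1 (adjusted p 0.0999) or SRF KO replicate 3 (0.120).

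**Figure D5:**
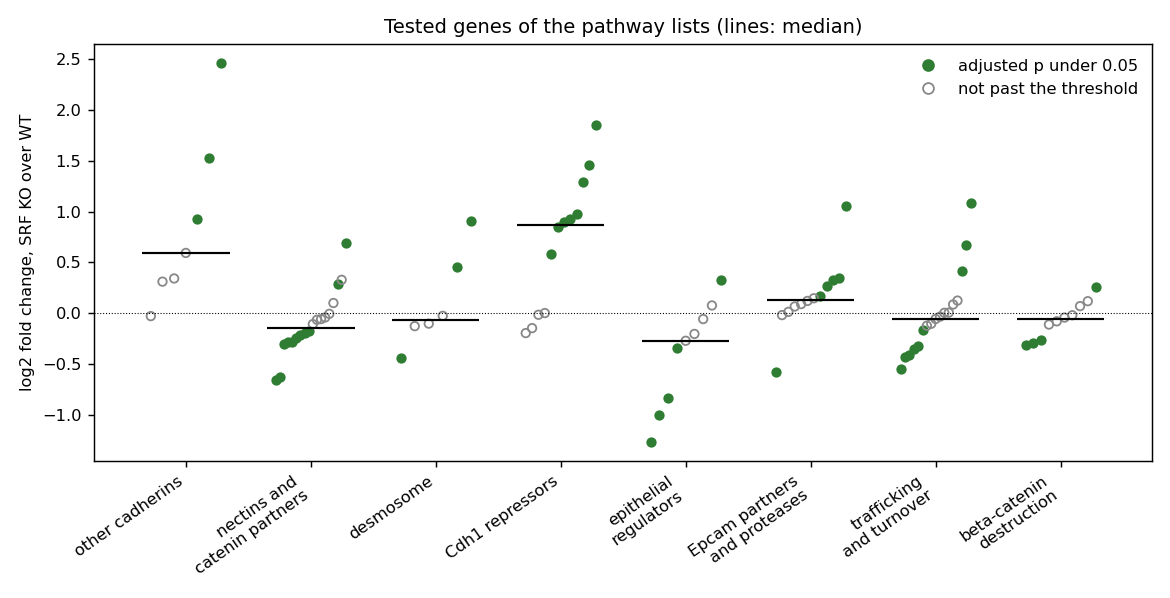
Log2 fold change, SRF KO over WT, of each tested gene of the 8 adhesion lists (filled green where the edgeR adjusted p was under 0.05, open grey otherwise), with a line at each list's median. The repressors of Cdh1 and the other cadherins have no called gene below 0, with medians of 0.87 and 0.59. The remaining lists hold medians between -0.27 and 0.13.

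Marker lists show how genes known from given cell types differed in the same libraries. In bulk RNA a change in the number of cells of a type and a change in RNA per cell cannot be told apart. The iPSC label was checked against 13 pluripotent cell markers, whose summed level was between 7808 and 8359 CPM in WT and between 6489 and 6605 CPM in SRF KO. Of these, 1 was called higher and 7 lower. The most abundant, Dppa5a, had 1220 ± 10.97 CPM in SRF KO against 1636 ± 125 CPM in WT, followed by Tdgf1 at 1209 ± 27.7 and 1384 ± 71.8 CPM and Pou5f1 at 773 ± 11.3 and 818 ± 52.4 CPM (SD, n = 3). Pou5f1 was not called (edgeR adjusted p 0.258), though it was without WT replicate 2 (0.0134). The call of Tdgf1 was lost without SRF KO replicate 1 (0.0750).

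Of 16 fibroblast markers, 16 were called higher, and their summed level was between 747.7 and 872 CPM in WT and between 1549 and 1884 CPM in SRF KO. Their median log2 fold change was 1.16, beside 1.48 for Cdh11 and 0.93 for Cdh2. The most abundant were Bgn, Col1a1 and Fbln2, with log2 fold changes of 1.19, 1.02 and 1.08, and none of the 16 was at 0. Of 18 extraembryonic endoderm markers, 16 were tested and 16 called higher, with summed levels between 591.5 and 622 CPM in WT and between 3529 and 3753 CPM in SRF KO. Their median log2 fold change was 3.64, and Sparc, Col4a1 and Lama1 were the most abundant. Ttr (0 counts in every WT library), Hnf4a (2, 5 and 2) and Foxa2 (17, 8 and 5) would not have passed the filter on their WT counts alone. The direction of their calls was therefore not independent of the filter. The part of these cell types in the cadherin differences was not tested.

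The endothelial list was read beside Cdh5. Its 14 markers summed to between 109.7 and 116 CPM in WT and between 124 and 129 CPM in SRF KO, and of 13 tested 9 were called higher and 2 lower. The most abundant, Pecam1, which pluripotent cells also express, fell from 55.6 ± 2.76 to 29.4 ± 1.10 CPM (SD, n = 3). Robo4 rose from 13.5 ± 2.60 to 33.9 ± 1.43 CPM (SD, n = 3). Egfl7 had a log2 fold change of 0.28 and lost its call without SRF KO replicate 1 (adjusted p 0.115) or SRF KO replicate 3 (0.0706). Of the other 10 tested genes of the list, Kdr, Flt1, Esam, Erg, Sox18, Sox17 and Cd34 were called higher, with log2 fold changes between 0.60 (Cd34) and 3.57 (Sox17), and Tek was called lower, at -0.51. Erg, with 7, 5 and 5 counts in WT, would not have passed the filter on low counts on these alone. The receptor Kdr had 2.02 ± 0.169 CPM in SRF KO against 0.714 ± 0.0272 CPM in WT (SD, n = 3, chosen, like the genes that follow, after its value was seen). Tie1 had 0.573 ± 0.0926 CPM in SRF KO against 0.439 ± 0.0742 CPM in WT, and Cldn5 had 0.686 ± 0.214 and 0.603 ± 0.154 CPM (SD, n = 3). Neither was called (edgeR adjusted p 0.295 and 0.689), and Emcn did not pass the filter. Sox17, which is on both the endothelial and the endoderm list, rose from 0.486 ± 0.0318 to 5.81 ± 0.470 CPM (SD, n = 3). The part of endothelial cells in the Cdh5 difference was not tested.

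Trophoblast and neural markers were lower in sum through Tfap2c and Map2, and the rest of each list was not lower in sum. The 10 trophoblast markers summed to between 103.6 and 113.5 CPM in WT and between 73.5 and 75.5 CPM in SRF KO, with 1 called higher and 3 lower of 8 tested and 1 (Tpbpa) at 0 in every library. The most abundant were Tfap2c, Eomes and Plet1, with log2 fold changes of -1.10, 0.09 (not called) and 0.54. Tfap2c fell from 71.0 ± 5.33 to 33.1 ± 1.89 CPM (SD, n = 3), more than the sum did. The 9 neural markers summed to between 99.3 and 101 CPM in WT and between 92.7 and 96.8 CPM in SRF KO, with 1 called higher and 2 lower of 6 tested. Map2 and Nes had log2 fold changes of -1.33 and 0.44, and Tubb3, another of the most abundant, did not pass the test. The fall of Map2, from 25.1 ± 1.27 to 9.97 ± 0.359 CPM (SD, n = 3), was also larger than that of its list's sum.

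Genes whose pattern over the 6 libraries was most like that of Cdh1 and Cdh2 were found among 12343 genes with a mean of at least 50 counts. Likeness was the root mean square difference of log2 CPM after each gene was centred on its own mean. For Cdh1 the nearest were Atf7ip at 0.0108, Arf4 at 0.0152 and Rtn4 at 0.0152, none of which was itself called (edgeR adjusted p between 0.0579 and 0.102), though each was without WT replicate 2 (between 0.00591 and 0.0181). For Cdh2 they were Bmp4 at 0.0164, Gbx2 at 0.0250 and Dnmt3a at 0.0294. Bmp4, a secreted signal, had 53.35 ± 1.14 CPM in SRF KO against 28.6 ± 1.07 CPM in WT, and Dnmt3a, a DNA methyltransferase, had 447 ± 1.46 and 243 ± 0.942 CPM (SD, n = 3). With 2 groups, genes with a similar fold change are near each other by this measure.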

How the data were processed

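Bulk RNA was measured in 3 SRF KO and 3 WT iPSC samples. The authors deposited whole-number counts per gene and per transposable element subfamily, and adaptor, low-quality and empty reads had been removed, per the labels' protocols. The submitters' processing notes name the build mm10 and DESeq2 without a role, and the aligner, the counting program and its use of strand are not given in the sources used here. Each column was matched to its sample by name.

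Gene and element entries entered one fit in R 4.3.3 with edgeR 4.0.16 (filterByExpr with a minimum count of 10, TMM scaling, quasi-likelihood test, no replicate term), with Benjamini-Hochberg adjustment over all features tested and a threshold of 0.05. The SE is the log2 fold change divided by the square root of its F statistic. DESeq2 1.42.0, other scalings, filters and thresholds, a replicate block and the omission of each library were alternatives. Intervals and floors (3 counts) cover counting error or replicate spread only. Exon length, position and overlap come from GENCODE M21, and promoters from RefSeq.

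The members and lists were chosen with earlier results of these data known. Named genes are the 10 members, Srf, up to 4 called genes with the smallest p per adhesion list, the 3 most abundant tested markers per cell type list, and the 3 genes nearest in pattern to Cdh1 and to Cdh2. Any other gene is said to be chosen after its values were seen, completes a count, or is named, with its counts known, for how it met the filter on low counts. Pvrl1 to Pvrl4 and Mllt4 are the table's names for nectins and afadin. The fit was tested on simulated counts for 15580 features, where it recovered 99.5% of 200 changed features with 4.33% false calls. The planted changes were at least 1 on the log2 scale in size, in features with ample counts, at a single dispersion and with no library apart. These rates therefore do not cover the smaller differences reported for most of the 10 genes. Replicate libraries differed by more than sampling noise (chi-square per degree of freedom of at least 1.63 over genes), so that each counted as 1 replicate.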

Additional observations from a re-analysis of the deposited data

How the results depend on the processing

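For the 10 members, 122 of 150 comparisons with an alternative kept direction and call, 26 lost the call and 2 gained it, and 0 reversed. For 55 other named genes, 764 of 825 kept both, 45 lost and 11 gained the call. The 5 reversals were all of Tubb3, which was never called (main value -0.01), at 0.001 with RLE scaling, 0.028 with total counts alone and 0.017, 0.021 and 0.034 without SRF KO replicate 2, WT replicate 3 and WT replicate 1 (from -0.074 to 0.034 over all 6 omissions). Members called lower numbered between 2 and 5 without single libraries (2 without SRF KO replicate 2 or WT replicate 1), 2 at an adjusted p of 0.01 and 0 where the log2 fold change also had to be 1 or more in size. Members called higher numbered 2 at that size and 3 or 4 otherwise. Over all genes, that size left 817 higher and 260 lower, while 2013 were lower at an adjusted p of 0.01. Stricter thresholds lower counts by construction. The log2 difference of the catenin to cadherin ratio was -0.33, and -0.30 per kb, where each gene's weight changes with its length. Total counts alone moved the median of all genes from -0.01 to 0.02.

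Libraries with the same replicate number were not treated as pairs, since the labels give no pairing beyond the number. Their deviations from the group means correlated at 0.057, 0.383 and 0.236 for replicates 1, 2 and 3, and SRF KO replicate 1 correlated best with WT replicate 3. The value for replicate 2 was the highest of all pairs across the groups, and a shift shared by the replicate 2 libraries was not tested. The replicate block gave 3659 genes higher and 3853 lower, and 4 members were higher and 5 lower, Ctnnb1 being added (-0.11, edgeR adjusted p 0.0161). The omission of single libraries from the coefficients of variation was chosen after seeing the data. Depth limits Cdh5, with 5 to 7 counts per WT library.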
